A study of Homo sapiens with 6 samples.

Results

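The oxidative phosphorylation genes described here were every protein-coding row of the deposited gene table whose name starts as a subunit of respiratory complexes I to V does: MT-ND, MT-CO, MT-ATP and MT-CYB on the mitochondrial chromosome (chrM), and NDUF, UQCR, ATP5, COX4 to COX8 and SDHA to SDHD in the nucleus. The rule found 113 of 64253 rows, or 113 of 19892 protein-coding rows outside alternate scaffolds, where another 13 matching rows were left out. Of the 113, 13 are chrM genes and 82 are nuclear genes for subunits. A further 10 are assembly factors or related genes that share the prefixes, and 8 are gene copies, read-through rows or second rows of a gene. By complex, the 95 subunit genes divide into 44 for complex I (37 nuclear and 7 chrM), 4 for complex II (all nuclear), 9 for complex III (8 and 1), 21 for complex IV (18 and 3) and 17 for complex V (15 and 2).

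The cells were H69, an immortalised human cholangiocyte line (cholangiocytes line the bile ducts), at passages 30 to 32. RNA sequencing compared 3 vehicle libraries with 3 libraries from cells kept for 16 h with 10 ng/ml of recombinant human TGF-beta, to find which genes change with this cytokine. All samples come from this 1 line, so the comparison covers no other donor or bile duct. Whether a replicate was its own culture is not said in the labels, so the p-values cover the spread among these libraries, which may be technical.

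Oxidative phosphorylation turns the energy of nutrients into ATP at the inner mitochondrial membrane. Complexes I and II take electrons from NADH and succinate, complex III passes them to cytochrome c, complex IV passes them to oxygen, and complex V makes ATP from the proton gradient that complexes I, III and IV build. All complexes but complex II combine subunits of both genomes: a few core proteins are made inside the mitochondrion from mitochondrial DNA, and the rest are made in the cytosol from nuclear genes and imported. The mitochondrial genome is read as long transcripts from each strand that are cut into separate messenger, ribosomal and transfer RNAs, so its messengers share a source and are not independent replicates of each other.

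Deposited counts summed to between 37205862 and 54160521 per library. The TGF-beta target genes SMAD7 and FN1 were both higher with TGF-beta, by log2 fold changes of 2.48 and 1.95. Of 6 cholangiocyte markers, KRT7 and KRT8 were higher, SOX9 and EPCAM lower and KRT19 and KRT18 not called. All 4 hepatocyte markers were at or near 0. Of the leukocyte markers, PTPRC and CD3E were at or near 0, and CD14 was at 1.28 RPKM (the authors' counts per length and depth) in vehicle and lower with TGF-beta (-1.14). Of the endothelial markers, CDH5 was near 0, VWF was at 0.0173 RPKM in vehicle and not called, and PECAM1 was at 0.0847 RPKM in vehicle and lower (-1.18). The part of such cells in the results was not tested. The 4 mesenchymal markers COL1A1, COL1A2, PDGFRB and VIM were present in every library and higher with TGF-beta (COL1A1 at 1515 to 1682 CPM in vehicle and 4723 to 5433 CPM with TGF-beta, CPM being counts scaled to a common library size). Vehicle replicate 1 stood apart from vehicle replicates 2 and 3 on the second principal component (36.6 against -14.9 and -18.7). Several results that move with it are therefore given also without it. In bulk RNA, more cells of a kind and more RNA per cell cannot be told apart.

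The chrM genes are packed so closely that some share bases, which bears on how far their counts are separate measurements. MT-ATP8 and MT-ATP6, the mitochondrial subunits of the ATP synthase membrane part, share 46 bases at chrM:8527-8572 (+ strand, GRCh38, from the GENCODE v29 transcripts). Below they are printed 5′ to 3′ with the start codon of MT-ATP6 and the stop codon of MT-ATP8 in capitals. MT-ND4L and MT-ND4, membrane subunits of complex I, share 7 bases, printed in capitals with 20 bases on each side, at chrM:10740-10786.
MT-ATP8 and MT-ATP6: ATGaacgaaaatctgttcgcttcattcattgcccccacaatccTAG
MT-ND4L and MT-ND4: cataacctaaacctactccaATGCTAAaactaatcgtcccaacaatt
MT-ATP6 also touches MT-CO3, and the other 8 chrM members overlap no other row of the table. The sources used here do not give how reads in shared bases were assigned.

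All 13 chrM members rose with TGF-beta, each by a modest amount, while most nuclear subunits had log2 fold changes near or slightly below 0. By the quasi-likelihood test of edgeR, with p-values adjusted after Benjamini and Hochberg over the 20992 genes tested, 15 members in all were called higher and 11 lower of 107 tested, at an adjusted p under 0.05, where 40.1% of all genes were called in either direction. Of these, 13 of 13 chrM members were called higher, against 19.7% of all genes tested (and 25.2% of the protein-coding genes that averaged 10 or more CPM). Their log2 fold changes had a median of 0.36 and ran from 0.21 in MT-ND2 to 0.43 in MT-ND4L and MT-ND5, beside a median of -0.01 over all genes tested. Of 77 nuclear subunits tested, 1 was called higher, 10 lower and 66 were not called. Those 10 are 13% of the 77, below the 20.4% of all genes tested that were called lower (23.4% at 10 or more CPM). The groups did not overlap for 13 of 13 chrM members and for 28 of 77 nuclear subunits (4 higher and 24 lower with TGF-beta), beside 52.3% of all genes tested and 60.5% at 10 or more CPM. The nuclear median was -0.04. In the plot of fold changes by complex, the chrM median lies above the nuclear median in each complex that draws on both genomes. Single genes were not all apart: in complex IV, nuclear COX6B2 (0.41) and NDUFA4L2 (0.59, not called) lay above the chrM members (0.26 to 0.37).

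**Figure D1:**
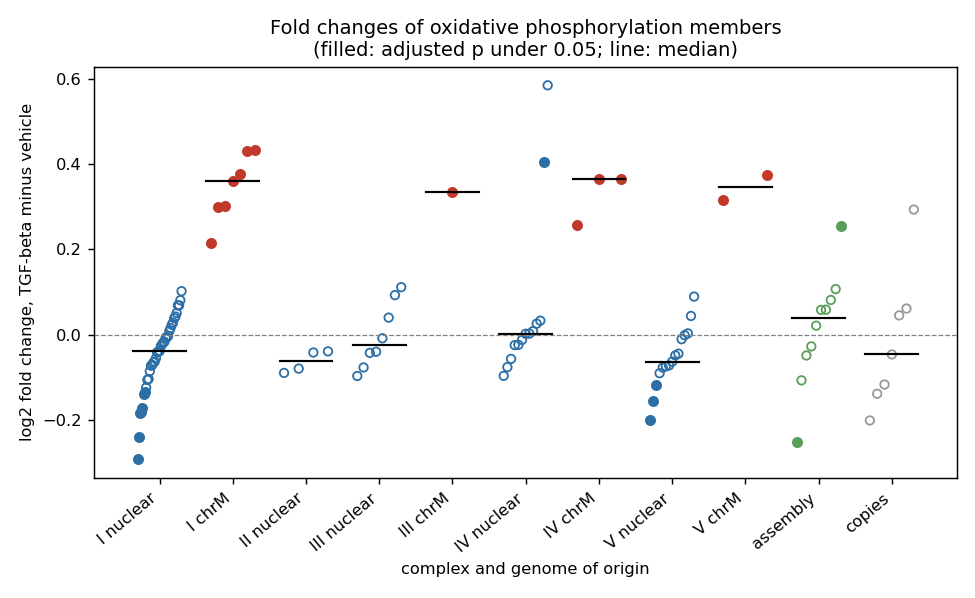
Each point is a tested member, placed by complex and genome of origin (x axis) and by its log2 fold change, TGF-beta minus vehicle (y axis). Filled points have an adjusted p under 0.05 and lines are medians. The 13 chrM points lie between 0.21 and 0.43, and the nuclear medians of complexes I to V lie between -0.06 and 0.00.

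The chrM members are described first, by complex. CPM values are per library total scaled by TMM, edgeR's trimmed-mean scaling, and are listed for replicates 1, 2 and 3. MT-CO1, the catalytic subunit of cytochrome c oxidase that holds its oxygen-reducing centre, stood at 5306, 6233 and 6384 CPM in vehicle and at 7363, 8121 and 7598 CPM in TGF-beta libraries. Every TGF-beta library was above every vehicle library, and vehicle replicate 1 was the lowest (log2 fold change 0.36, SE 0.07, adjusted p = 0.00263). Without vehicle replicate 1 the log2 fold change of MT-CO1 was 0.29. MT-CO2, which receives electrons from cytochrome c, stood at 3162, 3560 and 3622 CPM in vehicle and 3939, 4307 and 4119 CPM with TGF-beta. MT-CO3, the third mitochondrial subunit of this enzyme, stood at 2109, 2319 and 2314 CPM in vehicle and 2767, 3044 and 2873 CPM with TGF-beta. The groups did not overlap for either gene, with log2 fold changes of 0.26 (SE 0.06, adjusted p = 0.00598) for MT-CO2 and 0.37 (SE 0.05, adjusted p = 0.000395) for MT-CO3. The call on MT-CO2 was lost with library totals alone and on either RPKM scale.

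Complex I takes 7 subunits from chrM, all of them in the membrane arm that pumps protons. MT-ND5 stood at 1389, 1587 and 1600 CPM in vehicle and 2003, 2157 and 2011 CPM with TGF-beta. MT-ND4L stood at 666, 749 and 760 CPM in vehicle and 945, 1017 and 973 CPM with TGF-beta. These 2 genes had the highest log2 fold changes of the 13, 0.43 each with an SE of 0.06 (adjusted p = 0.000272 and 0.000167). MT-ND4 stood at 3491, 4206 and 4220 CPM in vehicle and 4789, 5359 and 5153 CPM with TGF-beta, a log2 fold change of 0.36 (SE 0.08, adjusted p = 0.00497). With a library left out, the log2 fold change of MT-ND4 was 0.28 at its lowest. MT-ND6 is the single protein gene read from the opposite strand of mitochondrial DNA. The sources used here do not give whether counting used strand, so its reads cannot be told apart from RNA of the other strand at that place. It stood at 441, 488 and 482 CPM in vehicle and 581, 642 and 609 CPM with TGF-beta, so its log2 fold change of 0.38 (SE 0.05, adjusted p = 0.000317) lay within the range of the other chrM members. MT-ND3 stood at 202, 183 and 188 CPM in vehicle and 234, 245 and 226 CPM with TGF-beta (0.30, SE 0.05, adjusted p = 0.000838), and it differs from the complex IV genes in that vehicle replicate 1 was its highest vehicle library.

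MT-ND1 and MT-ND2, the first genes after the ribosomal RNAs, gave the least stable calls of the 13. MT-ND1 stood at 963, 1169 and 1227 CPM in vehicle and 1313, 1461 and 1367 CPM with TGF-beta. MT-ND2 stood at 1361, 1505 and 1519 CPM in vehicle and 1609, 1779 and 1700 CPM with TGF-beta. The groups did not overlap for either gene, but the gap between the nearest libraries was small beside the spread within vehicle. Their log2 fold changes were 0.30 (SE 0.09, adjusted p = 0.0291) and 0.21 (SE 0.06, adjusted p = 0.0114). The call on MT-ND1 was lost without vehicle replicate 2 (adjusted p = 0.0518), without TGF-beta replicates 2 (0.0885) or 3 (0.0778), and that on MT-ND2 without TGF-beta replicate 2 (0.0714). Without vehicle replicate 1 both were called, at 0.20 and 0.17. Neither was called with library totals alone or on either RPKM scale.

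MT-CYB is the mitochondrial subunit of complex III and carries electrons between the quinone sites of the complex. It stood at 1789, 2094 and 2127 CPM in vehicle and 2391, 2617 and 2568 CPM with TGF-beta. All TGF-beta libraries were above all vehicle libraries, by a log2 fold change of 0.33 (SE 0.07, adjusted p = 0.00323) that became 0.26 without vehicle replicate 1. For complex V, MT-ATP8 stood at 754, 748 and 738 CPM in vehicle and 962, 1013 and 933 CPM with TGF-beta. MT-ATP6, which forms the proton channel, stood at 2219, 2466 and 2457 CPM in vehicle and 2830, 3104 and 2952 CPM with TGF-beta. Their log2 fold changes were 0.38 (SE 0.04, adjusted p = 7.49e-05) and 0.32 (SE 0.06, adjusted p = 0.00119), and MT-ATP8 showed almost no spread within vehicle. With a library left out, the lowest values were 0.35 for MT-ATP8 and 0.27 for MT-ATP6. These are the genes whose 46 shared bases are printed above.

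The other RNAs of the mitochondrial genome did not all move with the messengers. MT-RNR1, the small ribosomal RNA, stood at 2573, 2454 and 2666 CPM in vehicle and 2278, 2360 and 2370 CPM with TGF-beta, and was called lower (log2 fold change -0.13, SE 0.05, adjusted p = 0.0381). That call was lost without vehicle replicate 3 (adjusted p = 0.145) and without TGF-beta replicate 1 (0.135), 2 (0.112) or 3 (0.0879). MT-RNR2, the large ribosomal RNA, stood at 2240, 2729 and 2892 CPM in vehicle and 2680, 2788 and 2630 CPM with TGF-beta, overlapping groups with a log2 fold change of 0.04 (adjusted p = 0.734) that turned to -0.06 without vehicle replicate 1, to -0.08 with library totals alone and to -0.04 on either RPKM scale. The labels name total RNA and a kit for messenger RNA but no poly(A) or ribosomal RNA step, and the part of such a step in the ribosomal RNA values was not tested. The ratio of chrM messenger to chrM ribosomal counts, which needs no scaling to the rest of the library, was 4.96, 5.27 and 4.97 in vehicle and 6.40, 6.77 and 6.62 in TGF-beta libraries. That is 5.07 ± 0.176 against 6.60 ± 0.188 (mean ± SD, n = 3), a ratio of 1.30 between the groups and of 1.29 without vehicle replicate 1. The plot in genome order shows both ribosomal RNAs below all 13 messengers.

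**Figure D2:**
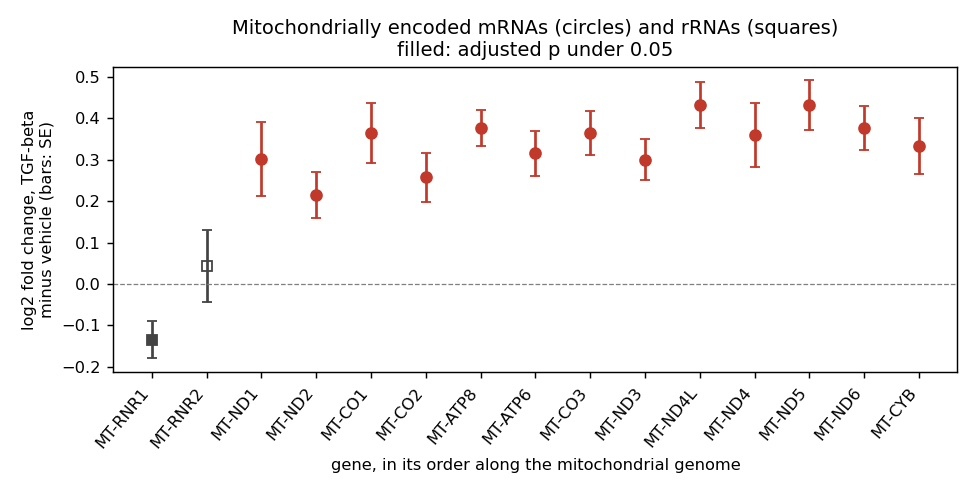
Log2 fold change, TGF-beta minus vehicle, with its SE (y axis) for the 2 ribosomal RNAs (squares) and 13 messengers (circles) in their order along the mitochondrial genome (x axis). Filled symbols have an adjusted p under 0.05. MT-RNR1 lies at -0.13 and MT-RNR2 at 0.04, below every messenger (0.21 to 0.43).

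Of the 22 mitochondrial transfer RNAs, 8 were called higher and 0 lower, beside 19.7% and 20.4% of all genes, and their median log2 fold change was 0.28. The number called higher was 13 without vehicle replicate 1, 5 without vehicle replicate 2, 3 without TGF-beta replicate 2 and 5 with library totals alone (median 0.15). In those settings, in the same order, 24.9%, 16.2%, 15.1% and 12.9% of all genes were called higher. MT-TV, MT-TS1 and MT-TP were called in 5 of 15, 6 of 14 and 8 of 15 alternatives. Of the 22, 21 had a log2 fold change above 0, and 18 with library totals alone, and MT-TF was at -0.09. These short RNAs lay at 0.231 to 72.2 CPM and flank the messengers, and the part of reads from neighbouring messengers in their counts was not tested. Nuclear pseudogene copies of mitochondrial genes (183 rows) held 0.0281 ± 0.00207% of the vehicle counts and 0.0324 ± 0.00113% of those with TGF-beta. The pseudogene of MT-ATP6, MTATP6P1, was called higher by 0.34 and that of MT-ND2, MTND2P28, by 0.28, beside 0.32 and 0.21 in the chrM genes themselves. MTND4P12, a copy of MT-ND4, had 0.41 and was not called. Reads shared by near-identical copies cannot be assigned to either. The copies' total is small beside that of chrM, but MTATP6P1 alone stood at 207, 222 and 242 CPM in vehicle, beside the MT-ATP6 values given above.

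As a share of each library, the 13 chrM members held 2.50%, 2.84% and 2.89% of the vehicle counts and 3.05%, 3.34% and 3.15% of those with TGF-beta (2.74 ± 0.209% against 3.18 ± 0.150%, mean ± SD, n = 3). Every TGF-beta library was above every vehicle library, and vehicle replicate 1 was the lowest. Without it the vehicle mean was 2.86%. The 82 nuclear subunits held 0.797%, 0.771% and 0.778% in vehicle and 0.699%, 0.691% and 0.693% in TGF-beta libraries (0.782 ± 0.0133% against 0.694 ± 0.00453%). Here the order was reversed: every TGF-beta library was below every vehicle library. These shares are of unscaled totals, and over all genes tested the median log2 fold change was -0.14 on that scale against -0.01 with TMM.

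**Figure D3:**
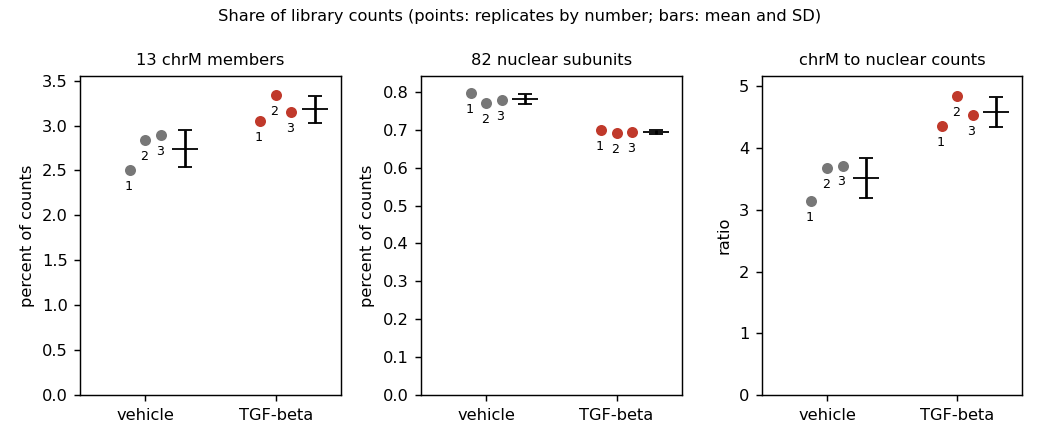
Percent of library counts held by the 13 chrM members (left) and the 82 nuclear subunits (middle), and the ratio of these counts (right), for 3 vehicle (grey) and 3 TGF-beta libraries (red) numbered by replicate. Bars are the mean and SD. The ratio lies between 3.14 and 3.72 in vehicle and between 4.36 and 4.84 with TGF-beta.

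The ratio of chrM to nuclear subunit counts does not depend on scaling. It was 3.14, 3.68 and 3.72 in vehicle and 4.36, 4.84 and 4.54 in TGF-beta libraries. The groups were apart, with means of 3.51 ± 0.321 and 4.58 ± 0.243 (SD, n = 3), a ratio of 1.30 between the groups that became 1.24 without vehicle replicate 1. The difference between the chrM and nuclear medians of the log2 fold change was 0.40, and it was 0.31 without that replicate, the lowest value over 15 alternatives (highest 0.42). A ratio within a library shows unequal change and does not show which side moved. No test was made of these sums, since the genes were grouped with earlier results known, and 3 against 3 libraries would not allow an exact p below 0.1.

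Levels are compared between genes only per length, in the authors' RPKM (counts divided by gene length and by library total), which carry no TMM scaling. The chrM members had a median level of 1068 RPKM in vehicle and 1358 RPKM in TGF-beta libraries. The lowest of them was MT-ND3 (242 and 280 RPKM) and the highest MT-CO2 (2210 and 2488 RPKM). The 82 nuclear subunits had a median of 13.3 RPKM in vehicle and 11.4 RPKM with TGF-beta. Their highest member was ATP5B (now ATP5F1B), the catalytic beta subunit of ATP synthase, at 125 and 111 RPKM, which is below MT-ND3. The ratio of the chrM median to the nuclear median was 82.9 ± 7.11 in vehicle and 119 ± 5.73 in TGF-beta libraries (SD, n = 3). The middle gene of a set can differ between libraries, so these ratios do not give a change per gene. Per gene, the difference between the chrM and nuclear medians of the log2 fold change was 0.39 on log2(RPKM + 1) and 0.40 on log2(RPKM + 0.1). The deposited length of a nuclear gene counts more than its main transcript where it has several, and the plot of levels shows all members with a level above 0.

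**Figure D4:**
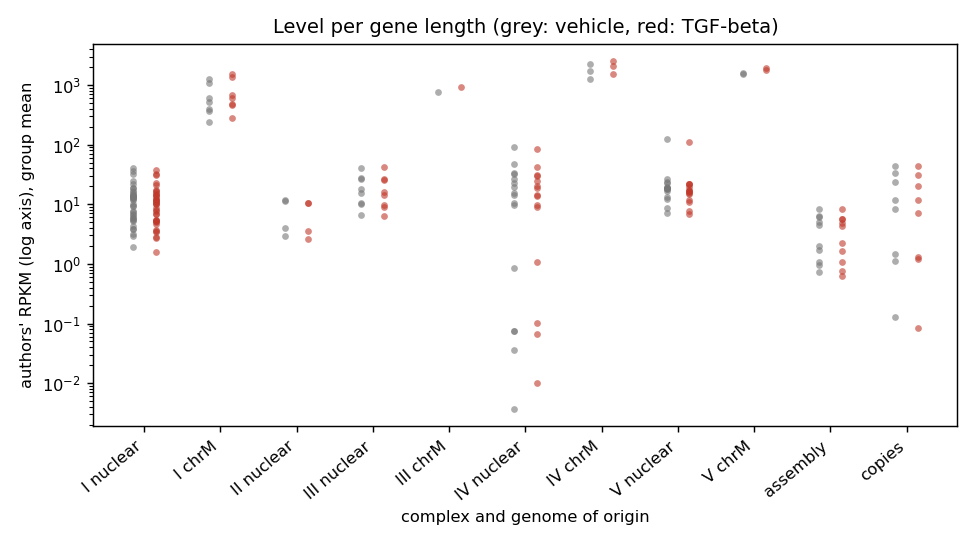
Group mean of the authors' RPKM (y axis, log scale) for each member in vehicle (grey) and TGF-beta libraries (red), by complex and genome of origin (x axis). COX7B2 and COX6A2 (0 in both groups) and the TGF-beta value of COX8C (0) cannot be drawn on a log axis. The chrM members lie at 242 RPKM or above and the nuclear subunits at 125 RPKM or below.

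Nuclear complex I had 0 members called higher, 7 lower and 30 not called of 37, and its median log2 fold change was -0.04. The members called lower were NDUFV2, NDUFA5, NDUFS1, NDUFB5, NDUFC1, NDUFA2 and NDUFV3, and their share (18.9%) lay near the 20.4% of all genes. NDUFV2 (ENSG00000178127, chr18:9102630-9134345), an iron-sulfur subunit of the NADH-oxidising tip, stood at 87.7, 80.6 and 76.7 CPM in vehicle and 67.7, 66.7 and 65.5 CPM with TGF-beta. All vehicle libraries lay above all TGF-beta libraries, and its log2 fold change of -0.29 (SE 0.05, adjusted p = 0.00153) was the lowest of all members. It was called under all 15 alternatives. NDUFV1, the partner of NDUFV2 that binds NADH, had a log2 fold change of -0.11 (adjusted p = 0.132) and missed the threshold. It passed in 5 of 15 alternatives, among them the fit that leaves out vehicle replicate 1 (-0.14, adjusted p = 0.00537).

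NDUFS1, the largest iron-sulfur subunit of the same arm, stood at 164, 160 and 156 CPM in vehicle and 145, 142 and 136 CPM with TGF-beta, a log2 fold change of -0.19 (SE 0.04, adjusted p = 0.00575). NDUFA5, an accessory subunit, stood at 45.9, 42.9 and 42.7 CPM in vehicle and 38.8, 37.8 and 34.6 CPM with TGF-beta (-0.24, SE 0.06, adjusted p = 0.00653). Both were called under all 15 alternatives and their groups did not overlap. The other 4 members called lower had log2 fold changes from -0.18 in NDUFB5 to -0.13 in NDUFV3. All 4 calls were lost without TGF-beta replicate 2 (adjusted p from 0.0607 in NDUFB5 to 0.151 in NDUFA2) and without TGF-beta replicate 3 (from 0.0503 to 0.102). Without vehicle replicate 2, NDUFC1, NDUFA2 and NDUFV3 were not called, and without vehicle replicate 3 or TGF-beta replicate 1 neither NDUFA2 nor NDUFV3 was. By position in the enzyme, 2 of the 7 nuclear core subunits (28.6%) and 5 of the 30 accessory subunits (16.7%) were called lower, beside 20.4% of all genes. NDUFB7, the complex I member with the highest RPKM among nuclear genes (41.3 in vehicle), stood at 47.9, 49.4 and 52.7 CPM in vehicle and 47.5, 45.8 and 49.5 CPM with TGF-beta, overlapping groups (-0.07, adjusted p = 0.301). NDUFS1, NDUFA5, NDUFV1 and the other members named here that the naming rule did not select were chosen after their values were seen.

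Complex II, succinate dehydrogenase, is the complex with no chrM subunit, and none of its 4 genes was called. SDHA, the flavoprotein that oxidises succinate, stood at 217, 217 and 217 CPM in vehicle and 204, 211 and 218 CPM with TGF-beta. SDHB, its iron-sulfur partner, stood at 22.1, 22.6 and 21.8 CPM in vehicle and 21.6, 22.4 and 20.6 CPM with TGF-beta. SDHD, a membrane anchor, stood at 69.2, 64.9 and 67.2 CPM in vehicle and 64.2, 62.0 and 62.9 CPM with TGF-beta. The groups overlapped for SDHA and SDHB and lay apart for SDHD, and the log2 fold changes were -0.04 for SDHA (SE 0.04, adjusted p = 0.478), -0.04 for SDHB (SE 0.06, adjusted p = 0.589) and -0.09 for SDHD (SE 0.04, adjusted p = 0.131). The complex II median was -0.06.

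In complex III, 0 of 8 nuclear members were called in either direction, and the median was -0.02. UQCR10, a small subunit and the member with the highest RPKM of the complex (41.0 in vehicle), stood at 97.0, 87.6 and 88.7 CPM in vehicle and 100.2, 95.6 and 99.4 CPM with TGF-beta. The groups overlapped through vehicle replicate 1, and the log2 fold change of 0.11 (SE 0.05) had an adjusted p of 0.102. Without that replicate it was called higher, at 0.16 (adjusted p = 0.00192). UQCRC1 and UQCRC2, the large core proteins, had log2 fold changes of 0.09 and -0.04, and UQCRFS1, the Rieske iron-sulfur protein, had -0.08; none was called.

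In complex IV the 11 nuclear subunits other than the tissue-restricted forms had 0 called of 11, with a median of -0.01 that became -0.14 with library totals alone. COX4I1, the widely expressed regulatory subunit, stood at 162, 168 and 173 CPM in vehicle and 162, 170 and 173 CPM with TGF-beta, and its log2 fold change of 0.01 turned to -0.12 with library totals alone. COX8A, the nuclear gene of this complex with the highest RPKM (91.2 in vehicle), stood at 112, 107 and 97.1 CPM in vehicle and 97.7, 106 and 113 CPM with TGF-beta. NDUFA4, named for complex I but now placed in complex IV, stood at 166, 156 and 159 CPM in vehicle and 166, 159 and 156 CPM with TGF-beta, and its 0.00 turned to -0.12 with library totals alone. These 3 genes had overlapping groups. The same held for COX6A1 (0.03), COX7B (-0.02), and not for COX6B1 (-0.08) and COX7A2 (-0.06), whose groups lay apart without being called.

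Several complex IV subunits come as pairs of a common form and a form restricted to a tissue or condition, and these libraries held nearly all their counts in the common forms. COX6A2 and COX7B2, known from heart and muscle and from testis, had 0 counts in all 6 libraries, which allows up to 3 counts or 0.0533 to 0.0839 CPM per library. COX4I2, the lung form, had 1 count in vehicle replicate 2 and 2 counts in TGF-beta replicate 3. COX7A1, the muscle form, had 2 to 13 counts per library, and COX8C, a testis form, had 1, 5 and 1 counts in vehicle and 0 in every TGF-beta library. None of these 5 passed the filter on low counts, and at these depths no change was detectable in them. Intervals and limits of this kind cover counting error only.

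COX6B2, the testis form of COX6B1, was the nuclear subunit called higher and is 1 of 2 low forms that passed the filter. It stood at 6.62, 7.95 and 8.02 CPM in vehicle and 10.3, 9.81 and 9.95 CPM with TGF-beta, a log2 fold change of 0.41 (SE 0.09, adjusted p = 0.00435). All TGF-beta libraries were above all vehicle libraries, and the call held under all 15 alternatives (0.33 without vehicle replicate 1). Per length, COX6B2 was at 0.866 RPKM in vehicle and 1.08 RPKM with TGF-beta, and COX6B1 at 48.1 and 42.9 RPKM. The COX6B2 row (chr19:55349306-55354814) overlaps CTD-2105E13.6 on the same strand, which was called higher by 0.42, and their reads cannot be told apart where they share bases. NDUFA4L2, the hypoxia-responsive relative of NDUFA4, stood at 0.572, 0.356 and 0.501 CPM in vehicle and 0.475, 0.749 and 0.877 CPM with TGF-beta. Its groups overlapped and it was not called (0.59, SE 0.28, adjusted p = 0.126), though it was without vehicle replicate 1 (0.73, adjusted p = 0.0428). Its row overlaps SHMT2 on the opposite strand, at 146 CPM in vehicle.

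Nuclear complex V had 0 of 15 members called higher, 3 lower and 12 not called, with a median of -0.06. The share called lower lay near the 20.4% of all genes. ATP5G2 (now ATP5MC2), 1 of 3 genes for the same c-ring protein of the rotor, stood at 156, 170 and 180 CPM in vehicle and 147, 145 and 148 CPM with TGF-beta. The groups lay apart, with a log2 fold change of -0.20 (SE 0.05, adjusted p = 0.0116). That call was lost without vehicle replicate 3 (adjusted p = 0.05003) and without TGF-beta replicate 2 (0.0623). ATP5G1 was called lower as well (-0.12, adjusted p = 0.0453, and 0.0574 to 0.144 without any 1 library other than vehicle replicate 1), and ATP5G3, the third gene for this protein, had -0.05 (adjusted p = 0.475). The ATP5G1 call was lost also with RLE size factors (0.0604), with DESeq2 (0.128) and with no filter on low counts (0.0929). ATP5C1 (now ATP5F1C), the central stalk subunit, was called lower at -0.16 (adjusted p = 0.0245), but not without vehicle replicate 2 (0.0578) or TGF-beta replicate 2 (0.107) or 3 (0.108). ATP5B stood at 672, 666 and 647 CPM in vehicle and 622, 614 and 627 CPM with TGF-beta, groups that lay apart (-0.09, SE 0.04) without passing the threshold (adjusted p = 0.0889).

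Of the 11 nuclear subunits called in either direction, 5 overlap another row with more than few counts (NDUFV2, NDUFS1, NDUFC1, NDUFA2 and COX6B2). Overlapping rows that were low in CPM, or low beside the member, were not counted here. The part of overlapping rows in the counts of these subunits was not tested. The nuclear calls depend on scaling more than the chrM calls do. With library totals alone, which moved the median of all genes to -0.14, 48 of 77 nuclear subunits were called lower beside 34.7% of all genes, and their median was -0.17. On the same scale the chrM median was 0.23 and 10 of 13 chrM members were called higher beside 12.9% of all genes, with MT-ND1, MT-ND2 and MT-CO2 not called. Relative to the median of all genes, the nuclear subunits were thus at -0.03 with either scaling. Without vehicle replicate 1, 15 nuclear subunits were called lower and 4 higher (25.5% and 24.9% of all genes), and 13 of 13 chrM members were called higher with a median of 0.29. Without vehicle replicate 2, 5 nuclear subunits were called lower, without vehicle replicate 3 there were 6, without TGF-beta replicate 2 there were 3, and without TGF-beta replicate 3 there were 4, beside 14.4% to 16.5% of all genes. The plot of processing choices shows the medians of both genomes under each.

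**Figure D5:**
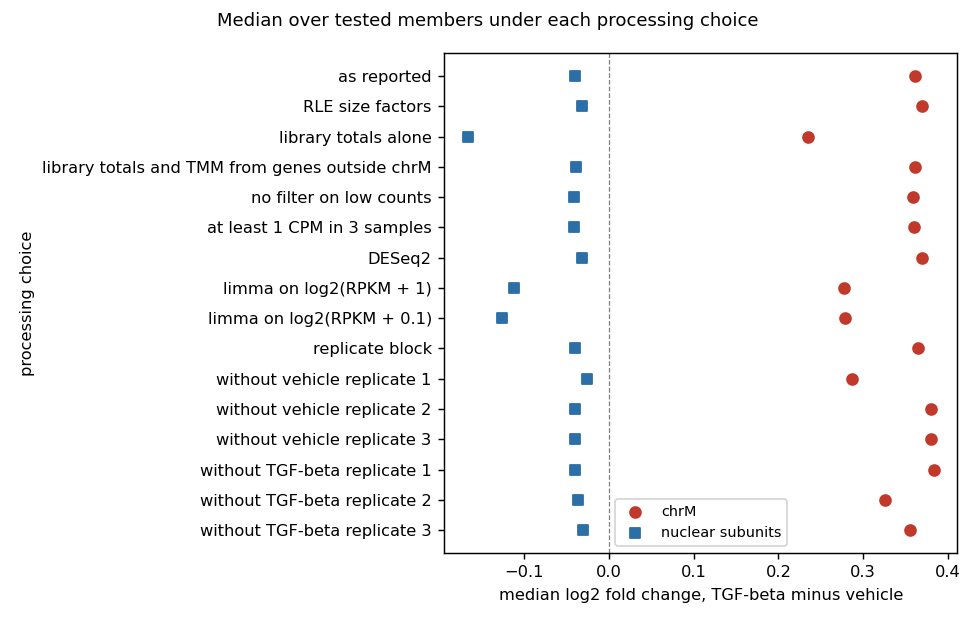
Median log2 fold change, TGF-beta minus vehicle (x axis), over the tested chrM members (circles) and nuclear subunits (squares) under each processing choice (y axis). The chrM median lies between 0.23 and 0.38 and the nuclear median between -0.17 and -0.03, with a distance of 0.31 to 0.42.

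Promoters of nuclear subunit genes are known to be rich in sites for the factors NRF1 and GABPA, which couple nuclear subunits to mitochondrial biogenesis. RefSeq windows of 250 bases upstream of a gene start (GRCh38.p14) were matched to 66 of the 82 nuclear subunit genes (78 windows). GCATGCGC, the core of the NRF1 motif, was in 17.9% of these windows and in 2.63% of all 35116 windows, reading both strands. CCGGAAG, an ETS-type motif of the kind GABPA binds, was in 23.1% against 8.52%. Of 17 windows of genes called lower, 4 held the first and 1 the second. These motifs were chosen after the windows had been looked at, and a match is only a description of the letters. Windows of 3 genes called lower and of COX6B2, called higher, are printed 5′ to 3′ on the gene's strand, with the matches in capitals.
ATP5C1, chr10:7787927-7788176, + strand: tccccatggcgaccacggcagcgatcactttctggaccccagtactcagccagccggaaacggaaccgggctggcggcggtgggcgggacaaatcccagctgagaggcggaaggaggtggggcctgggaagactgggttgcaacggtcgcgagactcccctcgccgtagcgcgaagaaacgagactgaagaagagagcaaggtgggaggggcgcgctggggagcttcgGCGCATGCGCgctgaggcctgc
ATP5G2, chr12:53676084-53676333, - strand: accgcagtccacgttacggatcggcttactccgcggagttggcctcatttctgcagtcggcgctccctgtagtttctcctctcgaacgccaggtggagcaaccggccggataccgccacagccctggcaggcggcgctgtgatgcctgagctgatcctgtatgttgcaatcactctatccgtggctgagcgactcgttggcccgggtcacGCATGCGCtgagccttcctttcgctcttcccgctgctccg
NDUFV2, chr18:9102449-9102698, + strand: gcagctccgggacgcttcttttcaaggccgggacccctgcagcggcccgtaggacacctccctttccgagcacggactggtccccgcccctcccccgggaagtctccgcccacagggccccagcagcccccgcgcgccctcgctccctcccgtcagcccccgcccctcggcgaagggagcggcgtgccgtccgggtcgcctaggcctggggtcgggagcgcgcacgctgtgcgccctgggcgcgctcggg
COX6B2, chr19:55354720-55354969, - strand: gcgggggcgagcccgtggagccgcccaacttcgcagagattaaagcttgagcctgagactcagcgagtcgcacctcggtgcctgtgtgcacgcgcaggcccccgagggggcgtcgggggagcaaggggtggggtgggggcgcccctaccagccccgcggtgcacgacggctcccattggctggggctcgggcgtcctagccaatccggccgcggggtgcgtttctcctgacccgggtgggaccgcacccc
ATP5C1 and ATP5G2 hold the motif close to the start, and the windows of NDUFV2, the most reduced member, and of COX6B2 hold neither motif.

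Among the 10 assembly factors and related genes that share the prefixes, 1 was called higher, 1 lower and 8 were not called. That is 10% in each direction, beside 19.7% of all genes called higher and 20.4% called lower. NDUFAF7, a methyltransferase that acts in complex I assembly, stood at 16.8, 16.0 and 17.4 CPM in vehicle and 19.6, 19.9 and 20.3 CPM with TGF-beta (0.25, SE 0.06, adjusted p = 0.00617), a call lost with library totals alone (0.13, adjusted p = 0.104). Its row overlaps PRKD3, called higher by 0.54, and CEBPZ, at 0.00. ATP5S (now DMAC2L) stood at 24.6, 24.2 and 24.7 CPM in vehicle and 21.1, 20.9 and 19.7 CPM with TGF-beta (-0.25, SE 0.05, adjusted p = 0.00391). Both genes had groups that lay apart. Rows of other genes overlap both, and their part in these values was not tested. NDUFAF2, the assembly gene with the highest RPKM (8.42 in vehicle), was not called (0.08, adjusted p = 0.391).

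Of the 8 copies, read-through rows and second rows, 7 were tested and none was called in either direction. NDUFC2-KCTD14 and ATP5J2-PTCD1 are read-through rows, at 56.4 and 77.8 CPM in vehicle, beside 70.0 and 102 CPM of NDUFC2 and ATP5J2, whose exons they share. Second rows under the names SDHD, UQCR11 and NDUFA7 overlap the first rows and stood at 22.8, 101 and 30.6 CPM in vehicle. Counts of these rows and of the genes they overlap are therefore uncertain, and none of these genes was called. UQCRHL, a copy of UQCRH, had -0.20 (adjusted p = 0.0706), against -0.10 in UQCRH.

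Other genes of the pathway were taken from lists outside the name rule. Of 34 assembly factors for complexes II to V, 2 were called higher (5.88%, beside 19.7% of all genes) and 13 lower (38.2%, beside 20.4%), with a median of -0.10. With library totals alone 20 were called lower, beside 34.7% of all genes, with a median of -0.23. Without TGF-beta replicate 2, 7 of them were called lower, and without vehicle replicate 2 or any 1 TGF-beta library 1 was called higher. COX19, a copper-handling factor for complex IV, rose by 0.35 (18.9, 18.0 and 18.4 CPM in vehicle and 23.2, 23.6 and 23.6 CPM with TGF-beta; adjusted p = 0.000535). LYRM7, which helps insert the Rieske protein into complex III, fell by 0.46 (21.6, 22.9 and 22.8 CPM against 18.1, 16.2 and 14.6 CPM; adjusted p = 0.000997). Of 8 complex I assembly factors outside the rule, ECSIT was called higher (0.31, adjusted p = 0.00169) and NUBPL (-0.21, adjusted p = 0.0208), FOXRED1 and COA1 lower, COA1 being in both lists. Without vehicle replicate 1 there were 2 called higher, and without TGF-beta replicate 3 there was 1 called lower. None of 7 electron carriers and subunits outside the rule, cytochrome c (CYCS, 0.09) and cytochrome c1 (CYC1, 0.01) included, was called, while 2 were called higher without vehicle replicate 1 and 2 lower with library totals alone. The call on NUBPL was lost with DESeq2 and without TGF-beta replicate 2 or 3.

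Of 21 genes of the machinery that handles mitochondrial DNA and RNA, 4 were called higher (POLRMT, POLG, SUPV3L1 and TFB2M) and 2 lower (TFB1M and POLG2), with a median of 0.04. Those shares, 19.0% and 9.52%, were not above the 19.7% and 20.4% of all genes. Without vehicle replicate 1, 8 were called higher, beside 24.9% of all genes. With library totals alone 6 were called lower, beside 34.7% of all genes, and the median was -0.08. POLRMT, the RNA polymerase of mitochondria, stood at 50.6, 49.4 and 47.6 CPM in vehicle and 60.7, 65.2 and 65.7 CPM with TGF-beta (0.38, SE 0.05, adjusted p = 0.000159). TFB2M, its initiation factor, was called higher by 0.27 (adjusted p = 0.00232). TFB1M, which methylates the small ribosomal RNA, stood at 10.99, 12.4 and 12.3 CPM in vehicle and 7.41, 8.49 and 8.71 CPM with TGF-beta (-0.53, SE 0.09, adjusted p = 0.000705). The groups lay apart for all 3 genes. Whether these genes bear on the chrM RNAs was not tested.

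Of 11 regulators of mitochondrial biogenesis tested, 5 were called higher (HIF1A, PPRC1, YY1, MYC and ESRRA) and 1 lower, beside 19.7% and 20.4% of all genes. NRF1 and GABPA, whose motifs are described above, were not called. The list was not split by whether a gene raises or lowers biogenesis. With library totals alone 2 regulators were called higher and 3 lower, beside 12.9% and 34.7%. With vehicle replicate 3 left out, 3 regulators were called higher, and the same number with replicate 1 or replicate 3 of the TGF-beta group left out. The 1 call lower was lost on leaving out replicate 2 or replicate 3 of either group and became 2 calls without vehicle replicate 1. HIF1A, the oxygen-regulated transcription factor, stood at 844, 721 and 684 CPM in vehicle and 1209, 1166 and 1156 CPM with TGF-beta (0.65, SE 0.07, adjusted p = 8.67e-05), all TGF-beta libraries above all vehicle libraries. PPRC1, a coactivator of the PGC-1 family, was called higher by 0.51 (adjusted p = 3.43e-05). TFAM, which packages mitochondrial DNA and helps start its transcription, stood at 71.7, 69.8 and 68.8 CPM in vehicle and 66.1, 62.2 and 62.6 CPM with TGF-beta (-0.14, SE 0.04, adjusted p = 0.0296). That small difference lost its call with DESeq2 (adjusted p = 0.0798) and without any of vehicle replicates 2 and 3 and TGF-beta replicates 2 and 3 (0.0502 to 0.138).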

How the data were processed

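RNA sequencing of 3 vehicle and 3 TGF-beta libraries of H69 cells was analysed from 1 deposited gene table, with groups taken from the treatment in the labels. Per the submitters' processing notes, the tools were bcl2fastq, STAR 2.6.1 and featureCounts of Subread, with build hg38. The count columns, per the file headers, hold whole-number reads per gene by the authors, not normalized. The RPKM columns, per the file headers, are RPKM by the authors. From the values, they use gene length plus 1 and a library total larger than the table's counts. The counts are 41.9% to 42.1% of that total in vehicle and 43.1% to 43.3% with TGF-beta. The part of this difference in RPKM comparisons between groups was not tested. The strand setting and the handling of overlapping or multi-mapped reads are not given in the sources used here.

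Counts were tested in R 4.3.3 with edgeR 4.0.16: TMM scaling (factors 0.951 to 1.05), a filter by filterByExpr (minimum count 10) and a robust quasi-likelihood fit, adjusted by Benjamini-Hochberg over the 20992 genes passing (common biological coefficient of variation 0.0788). The script was tested on simulated data. Calls are at adjusted p under 0.05. Groups that "lay apart" had no overlap in CPM between conditions, which held for 52.3% of all genes tested. Of the 113 members, 107 were tested. COX7B2, COX8C, COX6A2, COX4I2, COX7A1 and ATP5L2 did not pass the filter.

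Members and lists were chosen with earlier results of these data known. The text names all chrM members, the largest called rise and fall and the highest RPKM in each nuclear complex and among assembly factors, the complex IV isoforms with their partners, SDHA and SDHB, and the largest called rise and fall of each other list. The alternatives tried were scaling by RLE size factors, by library totals alone or by totals without chrM, 2 filters, DESeq2 1.42.0, limma 3.58.1 on log2(RPKM + 1) and log2(RPKM + 0.1) computed from the deposited values, a replicate block and leaving out each library. All 113 members had a current symbol by identifier, and 110 had the same span in GENCODE v29. Some marker and neighbouring genes are not reported here.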

Additional observations from a re-analysis of the deposited data

How the results depend on the processing

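The 13 chrM members had a positive log2 fold change under all 15 alternatives, and 10 to 13 of them were called higher. Of 492 values of the 33 members chosen by the naming rule, 450 kept their direction and side of the threshold, 16 lost and 24 gained a call, and 2 reversed: NDUFA4 and COX4I1, each at -0.12 with library totals alone. The 8 called subunits named outside that rule lost their call in 31 of 120 values. That setting moved the chrM median to 0.23 and the chrM calls to 10, since all values shift down together.

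Counts of members called lower moved most. Over all members, 11 became 55 with library totals alone, 7 with DESeq2, 42 with either RPKM scale and 4 to 18 with a library left out, and the median of -0.02 became -0.14 with library totals alone, -0.093 with RPKM + 1 and -0.10 with RPKM + 0.1, and -0.033 to -0.0043 with a library left out. For nuclear subunits, 10 became 48, 6, 37 and 37 (3 to 15 with a library left out, with 1 to 4 called higher), and the median became -0.17, -0.11 and -0.13. In complex I, 7 called lower became 21, 4, 17 and 17 (3 to 10) and the median -0.17, -0.11 and -0.12 (-0.045 to -0.022). In complex II, 0 became 4 with library totals and 3 with either RPKM scale (0 to 1), and the median -0.19, -0.12 and -0.14 (-0.070 to -0.046). In complex III, 0 became 5, 4 and 4 (0 to 1, and 0 to 1 called higher), and the median -0.15, -0.10 and -0.11. In complex IV, 0 became 7, 4 and 4 (1 to 2 called higher), and the median -0.12, -0.089 and -0.091 (-0.040 to 0.020). In complex V, 3 became 11, 9 and 9 (0 to 3, and 0 to 1 called higher), and the median -0.19, -0.14 and -0.15. The number of genes called over the whole table moved with these settings too: 29.8% were called lower on either RPKM scale and 34.7% with library totals.

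With counts of protein-coding genes alone as the denominator, the chrM share was 2.88% in vehicle and 3.34% with TGF-beta. The nuclear share was 0.822% in vehicle and 0.729% with TGF-beta.

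The labels number replicates 1 to 3 in both groups. Deviations of same-numbered libraries correlated at 0.0652, 0.0623 and 0.0129, and those of the other pairs at -0.0702 to 0.0136. These low values cannot show whether libraries of the same number shared a culture or day. With a replicate block, 13 chrM members were called higher with a median of 0.36, and 1 nuclear subunit was called higher and 11 lower. Depth limits the complex IV forms with 0 to 13 counts per library, in which no change was detectable.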

Other observations

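Proteins of the mitochondrial ribosome translate the chrM messengers and are all encoded in the nucleus. Of 79 genes named MRPL or MRPS and tested by edgeR's quasi-likelihood test, 5 were called higher (6.33%, beside 19.7% of all genes). Another 14 were called lower (17.7%, beside 20.4% of all genes), and the median log2 fold change was -0.04. With library totals alone 44 were called lower and 1 higher, with a median of -0.17, beside 34.7% and 12.9% of all genes. MRPL14, a protein of the large subunit, stood at 45.7, 43.3 and 45.5 CPM in vehicle and 56.7, 58.9 and 59.6 CPM with TGF-beta (0.38, SE 0.05, adjusted p = 9.17e-05). MRPL10 stood at 51.2, 56.0 and 57.6 CPM in vehicle and 43.2, 41.9 and 43.5 CPM with TGF-beta (-0.36, SE 0.05, adjusted p = 0.000405). Both genes had groups that lay apart. Without vehicle replicate 1, 10 were called higher and 23 lower, and without TGF-beta replicate 2 there were 3 and 7. Of all genes, 24.9% and 25.5% were called higher and lower in the first setting, and 15.1% and 14.4% in the second.

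Among the mitochondrial transfer RNAs, those that lie between MT-ND4 and MT-ND5 were all called higher: MT-TH by 0.47, MT-TS2 by 0.44 and MT-TL2 by 0.42 (adjusted p = 0.0022, 0.00546 and 0.00804). MT-TE, beside MT-ND6, was called higher by 0.41 (adjusted p = 0.000583). Of the 5 that lie together after MT-ND2, MT-TW was called higher by 0.57 (adjusted p = 0.0168, called in 12 of 15 alternatives), and MT-TA, MT-TN, MT-TC and MT-TY had values of 0.05, 0.11, 0.16 and 0.19 and were not called. The call on MT-TW was lost without vehicle replicate 2 (0.0555) and without TGF-beta replicate 1 (0.0515) or 2 (0.0892), and that on MT-TL2 without TGF-beta replicate 2 (0.0504). These genes were chosen after their values were seen.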
